A study of Mus musculus with 8 samples.

Results

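The 36 genes described here encode the steps by which a heart muscle cell takes pyruvate into the mitochondrion, burns it in the tricarboxylic acid (TCA) cycle and breaks down branched-chain amino acids. They were grouped by pathway, with earlier results of these data known. They comprise 8 genes of pyruvate entry, 11 of the TCA cycle, 3 of the malate-aspartate shuttle, the dehydrogenase subunit Dld that several complexes share, and 13 of branched-chain catabolism. All 36 were found among the 37991 genes of the count table, and all 36 had enough reads to be tested.

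RNA was measured in isolated adult mouse cardiomyocytes as 8 RNA-seq libraries, 4 of single colored cells and 4 of double colored cells. Every heart came from alpha-MHC MERCREMER MADM mice, whose tamoxifen-dependent Cre is driven by a cardiomyocyte promoter, and every heart had been injected with adenovirus carrying 4 cell cycle genes. Cells were collected 2 weeks later. The labels state that the single colored cells performed the cell cycle and that the double colored cells, although treated the same way, did not. MADM (mosaic analysis with double markers) reads division from color, because a recombination event that is followed by division can part the markers into daughters of different color. Division can also leave both markers in a single daughter, so color is an incomplete record. The labels name neither the age of the mice nor the identity of the 4 genes, and no uninjected heart is analysed here. They do not say whether libraries of a group came from separate hearts, so the p-values below measure the spread between these libraries.

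Pyruvate made from glucose or lactate crosses the inner mitochondrial membrane through the mitochondrial pyruvate carrier and is turned into acetyl-CoA by the pyruvate dehydrogenase complex, which kinases switch off by phosphorylation. The TCA cycle oxidizes acetyl-CoA and hands the electrons to the respiratory chain as NADH and FADH2. Leucine, isoleucine and valine are transaminated, decarboxylated by a branched-chain complex built like pyruvate dehydrogenase, and degraded to acetyl-CoA, propionyl-CoA and succinyl-CoA, so that their carbon enters the same cycle. The adult heart is dense in mitochondria and depends on these routes, with fatty acids as its main fuel.

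The libraries held between 25604705 and 30082278 counted reads in single colored and between 23820700 and 30057373 in double colored cells, most of them from mitochondrially encoded genes (77.5% to 85.9% in single colored and 84.2% to 88.3% in double colored libraries). The 36 genes, all encoded in the nucleus, drew between 40108 and 71255 reads per single colored and between 44295 and 54725 reads per double colored library. Of 12 cardiomyocyte markers (Myh6, Tnnt2, Ttn and others), all were detected in every library, with a summed level of 14364 to 26280 CPM (read counts scaled to the depth and composition of the library) in single colored and 22817 to 30014 CPM in double colored cells. RNA of other cell types was present too. Summed over 14 macrophage markers the level was 259 to 449.8 CPM in single colored and 141 to 194 CPM in double colored cells, with 4 markers passing the test as higher in single colored cells. Of these markers 12 had a positive log2 fold change and 2 a negative one. Summed over 12 lymphocyte markers the level was 17.0 to 34.7 CPM in single colored and 1.71 to 4.69 CPM in double colored cells, with 8 of 9 tested markers passing as higher. For 8 fibroblast markers it was 623 to 1848 CPM in single colored and 300.2 to 738 CPM in double colored cells, with 1 marker passing as higher. Of the fibroblast markers 6 had a positive log2 fold change and 2 a negative one. Without single colored replicate 1, 4 of these 8 were negative and none passed. None of 8 endothelial and none of 6 smooth muscle and pericyte markers passed in either direction. Single colored replicate 1 stood apart: it had the lowest summed cardiomyocyte level and the highest macrophage, lymphocyte and fibroblast levels, and it was the lowest of all 8 libraries for 34 of the 36 genes, against 18.8% of all tested genes. Without it the log2 fold change was closer to 0 by over 1.5 times for 25 of the 36 genes and by less for 10, and the sign of 1 turned, so the values without it are given for each step.

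All 36 genes had a negative log2 fold change (single over double colored), with a median of −0.40 and a range of −0.61 (Mpc2) to −0.03 (Pdk1), whereas 50.6% of the 12466 tested genes lay below 0 and their median was −0.01. None of the 36 passed the test, edgeR's quasi-likelihood F-test with Benjamini-Hochberg adjustment over all tested genes at 0.05, and adjusted p ran from 0.115 to 0.957. Of all tested genes 2.48% passed, 2.32% as higher and 0.16% as lower in single colored cells. At an unadjusted p under 0.05, 17 of the 36 were lower and none higher, against a background of 6.1% lower and 9.02% higher. DESeq2 and limma-voom likewise called none of them. Of all 12466 tested genes, DESeq2 called 101 lower and 455 higher, and limma-voom 17 lower and 236 higher. The libraries of the groups did not overlap for 14 genes, with single colored cells below (background 3.76%, and 5.37% with single colored cells above): Pdha1 of pyruvate entry, 7 of 11 TCA cycle genes, Mdh1 of the shuttle and 5 of 13 branched-chain genes. Library by library, the mean deviation of the 36 genes from their 8-library means was −0.785, −0.0935, 0.00210 and 0.0137 on the log2 scale in single colored replicates 1 to 4 and 0.0381, 0.187, 0.351 and 0.287 in double colored replicates 1 to 4. Every double colored library lay above every single colored one, narrowly for the closest libraries, and single colored replicate 1 lay far below the other 3.

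**Figure D1:**
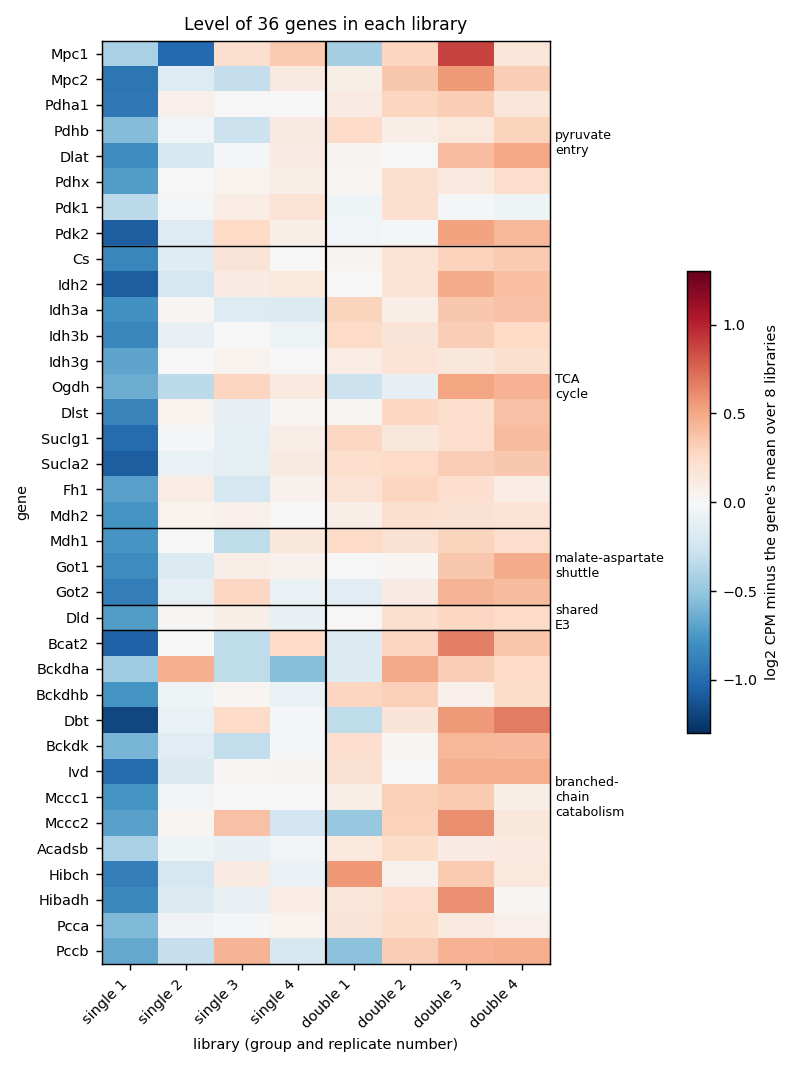
Each row is a gene and each column a library, single colored libraries on the left, and the color gives log2 CPM minus the gene's mean over the 8 libraries. Single colored replicate 1 is the lowest library in 34 of 36 rows, and the other single colored libraries lie closer to the double colored ones.

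Without single colored replicate 1, 35 of the 36 genes still had a negative log2 fold change (background 51%), with a smaller median of −0.26, and Pdk1 became positive at 0.06. The count at an unadjusted p under 0.05 was then 8, all lower, against a background of 4.71% lower and 6.47% higher, and none passed after adjustment. The number of all genes called was 142 in place of 309. The 14 genes without overlap did not overlap in that case either (background 4.75%). This outcome was fixed in advance, because leaving out any library cannot make separate groups overlap.

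Libraries with the same replicate number deviated together, so the number was also used as a block. With this replicate block 10 of the 36 genes passed the same test, all lower in single colored cells, against a background of 2.57% (7.53% in either direction). They were Mpc2 and Dlat of pyruvate entry, Idh2, Idh3a, Idh3b, Dlst, Suclg1 and Sucla2 of the TCA cycle, and Dbt and Ivd of branched-chain catabolism. Within the 4 numbered pairs 33 genes were lower in the single colored library in every pair (background 13.7%), Hibadh in 3 pairs, and Mpc1 and Pdk1 in 2. Most block calls were lost when the first pair was left out. Without both libraries numbered 1, which was chosen after seeing the data, only Mpc2 and Dlat passed (background 1.3%), and the median was −0.30. No other pair was left out with the block, so this loss cannot be ascribed to the first pair in particular. With the block and scaling to cardiomyocyte markers none passed (background 0.128% lower).

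RefSeq (GRCm38.p6) gave 34 of the 36 a window from 250 bases before to 50 bases after the gene start, and Idh3a and Dbt had no entry. Their GC content had a median of 60.3%, against 52.7% over 27025 genes. Shown are Mpc2, the gene with the largest fold change, and the members called with the block whose window held a searched motif, Idh3b and Dlst, in which capitals mark the ETS core CCGGAAG, read here on the opposite strand.
Mpc2, chr1:165461010-165461309, plus strand: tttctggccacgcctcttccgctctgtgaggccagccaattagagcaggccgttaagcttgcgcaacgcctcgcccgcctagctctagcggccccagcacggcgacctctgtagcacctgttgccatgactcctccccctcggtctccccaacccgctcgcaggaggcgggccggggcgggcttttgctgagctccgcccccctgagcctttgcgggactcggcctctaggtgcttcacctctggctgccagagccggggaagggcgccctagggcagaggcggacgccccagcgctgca
Idh3b, chr2:130284402-130284701, minus strand: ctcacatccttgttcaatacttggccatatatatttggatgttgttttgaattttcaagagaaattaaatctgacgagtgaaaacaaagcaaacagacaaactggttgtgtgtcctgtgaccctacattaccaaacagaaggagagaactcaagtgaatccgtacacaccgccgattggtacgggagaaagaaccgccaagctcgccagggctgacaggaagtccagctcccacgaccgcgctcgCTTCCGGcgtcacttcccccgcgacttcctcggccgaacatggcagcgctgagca
Dlst, chr12:85110583-85110882, plus strand: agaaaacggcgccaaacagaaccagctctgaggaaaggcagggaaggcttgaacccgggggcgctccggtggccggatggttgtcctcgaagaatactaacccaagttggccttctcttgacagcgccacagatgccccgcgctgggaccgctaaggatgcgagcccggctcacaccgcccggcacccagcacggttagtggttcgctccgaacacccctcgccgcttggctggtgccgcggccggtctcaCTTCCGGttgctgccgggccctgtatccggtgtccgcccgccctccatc
The capitals begin 5 bases before the first base of Idh3b and 1 base after that of Dlst. On both strands, the ETS core was found in 4 of 34 windows (11.8%; Idh3b, Dlst, Mpc1 and Idh3g) against 9.12% of all genes. The nuclear receptor core AAGGTCA was found in 1 of 34 (2.94%) against 4.66%, the NRF-1 core GCGCATGC in 1 (2.94%) against 2.81%, and the TATA core TATAAA in 2 (5.88%) against 14.2%. No other searched motif was found in the 3 windows shown, so no matches overlapped there. A match describes letters only, and no window of these genes was measured for binding.

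Per kilobase of exonic length, the highest level was that of Mdh1, the cytosolic malate dehydrogenase, at 67.7 ± 17.8 CPM per kb in single colored and 91.9 ± 2.48 CPM per kb in double colored cells (SD, n = 4 each). Citrate synthase (Cs), which joins acetyl-CoA to oxaloacetate, came next at 57.2 ± 15.6 CPM per kb in single colored and 74.6 ± 6.92 CPM per kb in double colored cells (SD, n = 4 each), and its spread in single colored cells overlapped that of Mdh1. In double colored cells, TCA cycle genes ran from 5.91 CPM per kb (Suclg1) to 74.6 (Cs), branched-chain genes from 1.67 (Mccc1) to 7.48 (Hibadh), and pyruvate entry genes from 0.331 (Mpc1) to 38.1 (Pdhb). Only Suclg1 of the TCA cycle lay within the branched-chain range. The dehydrogenase Dld stood at 37.9 ± 8.56 CPM per kb in single colored and 47.7 ± 3.89 CPM per kb in double colored cells (SD, n = 4 each), above Ogdh and Dlat, whose complexes it serves. In contrast, the branched-chain complex was low: Bckdha had 1.44 ± 0.517 CPM per kb in single colored and 1.90 ± 0.351 CPM per kb in double colored cells (SD, n = 4 each) and Bckdhb had 2.11 ± 0.475 CPM per kb in single colored and 2.82 ± 0.207 CPM per kb in double colored cells (SD, n = 4 each). Lowest of all was Mpc1, with 0.419, 0.279, 0.651 and 0.714 CPM in single colored and 0.419, 0.682, 1.04 and 0.627 CPM in double colored libraries. These groups overlapped throughout. Per kilobase it stood at 0.247 ± 0.0970 CPM per kb in single colored and 0.331 ± 0.123 CPM per kb in double colored cells (SD, n = 4 each), resting on 8 to 25 reads per library, although its product pairs with that of Mpc2 in the carrier. A pseudogene copy of Mpc1 is annotated (Mpc1-ps), 23.01% of its exonic length overlaps 4930506C21Rik on the opposite strand, and whether counting used strand is not known here, so its value is uncertain.

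**Figure D2:**
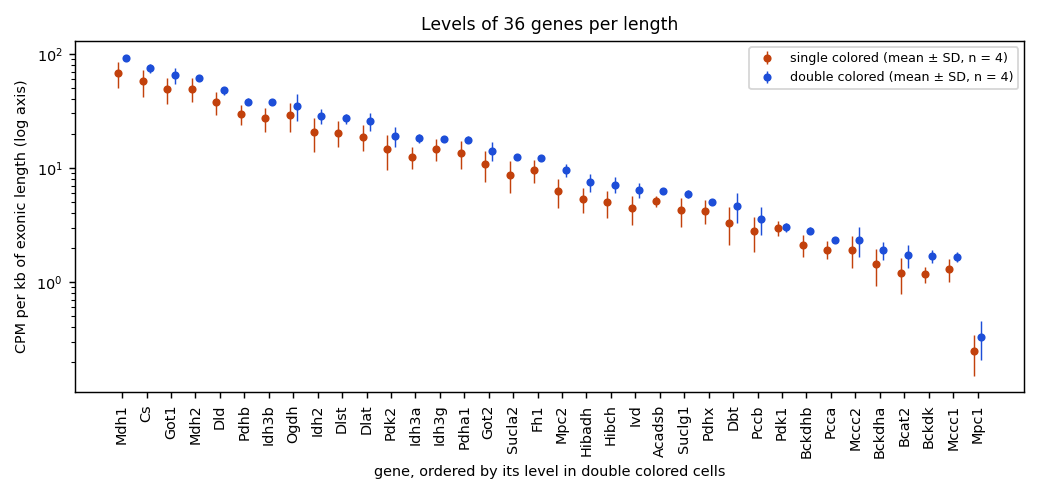
Mean level of each gene per kilobase of exonic length (log axis) with SD over 4 libraries, single colored on the left of each pair, genes in descending order of their double colored level. Levels span from 91.9 CPM per kb for Mdh1 to 0.331 for Mpc1 in double colored cells, and the single colored mean is below the double colored mean for every gene.

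Pyruvate entry was led by Mpc2 (ENSMUSG00000026568, mm9 chromosome 1, 167391168 to 167411345, plus strand), a subunit of the mitochondrial pyruvate carrier. Its level was 15.04, 25.7, 23.3 and 31.3 CPM in single colored replicates 1 to 4 and 30.4, 36.8, 42.4 and 36.02 CPM in double colored replicates 1 to 4. The groups overlapped by a single library, since single colored replicate 4 lay above double colored replicate 1, and each pair had the single colored library lower. Its log2 fold change was −0.61 ± 0.19 (s.e.) (edgeR unadjusted p = 0.00523, adjusted p = 0.115). With the replicate block it fell with an edgeR adjusted p of 0.00589, and without both libraries numbered 1 the adjusted p was 0.0170. Without a filter on low counts it also passed, with an edgeR adjusted p of 0.0178. Leaving out single colored replicate 1 gave −0.45 for Mpc2, and −0.34 for Mpc1 in place of −0.42.

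Of the pyruvate dehydrogenase complex no subunit passed without the block, and only Dlat passed with it. Dlat, its acetyltransferase core, had 60.3, 91.1, 103 and 113 CPM in single colored and 108, 105, 139 and 149 CPM in double colored libraries. Single colored replicate 4 lay above double colored replicates 1 and 2, and the log2 fold change was −0.44 ± 0.20 (s.e.) (edgeR adjusted p = 0.297, and 0.0356 with the replicate block). Pdhb, the beta subunit of the decarboxylase, had 33.3, 48.2, 40.7 and 53.5 CPM in single colored and 58.9, 52.5, 54.5 and 60.4 CPM in double colored libraries. Here single colored replicate 4 lay above double colored replicate 2, and the log2 fold change was −0.37 ± 0.16 (s.e.) (edgeR adjusted p = 0.286). Pdha1, the alpha subunit that the kinases phosphorylate, had 29.9, 59.9, 56.98 and 57.5 CPM in single colored and 61.5, 69.4, 71.6 and 63.6 CPM in double colored libraries. All single colored libraries lay below all double colored ones, by a gap that was narrow apart from replicate 1, and the log2 fold change was −0.38 ± 0.19 (s.e.) (edgeR adjusted p = 0.369). Map3k15 overlaps 15.98% of the exonic length of Pdha1 on the opposite strand. Pdhx, which tethers Dld to the complex, had a log2 fold change of −0.26 ± 0.17 (s.e.). With single colored replicate 1 left out, the values were −0.29 for Dlat, −0.26 for Pdhb, −0.20 for Pdha1 and −0.11 for Pdhx.

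Among the kinases that switch off pyruvate dehydrogenase, Pdk2, abundant in heart, had a log2 fold change of −0.39 ± 0.23 (s.e.), with 46.1 ± 15.9 CPM in single colored against 60.3 ± 12.3 CPM in double colored libraries (mean ± SD, n = 4 each). Its value was −0.18 without single colored replicate 1. Pdk1, a kinase known to be induced in hypoxia, had 18.2, 22.8, 24.8 and 26.4 CPM in single colored and 22.3, 26.7, 22.9 and 22.4 CPM in double colored libraries. Its groups overlapped throughout, and its log2 fold change of −0.03 ± 0.15 (s.e.) was the one closest to 0 of all 36. The difference between Pdk1 and the other genes was not tested.

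**Figure D3:**
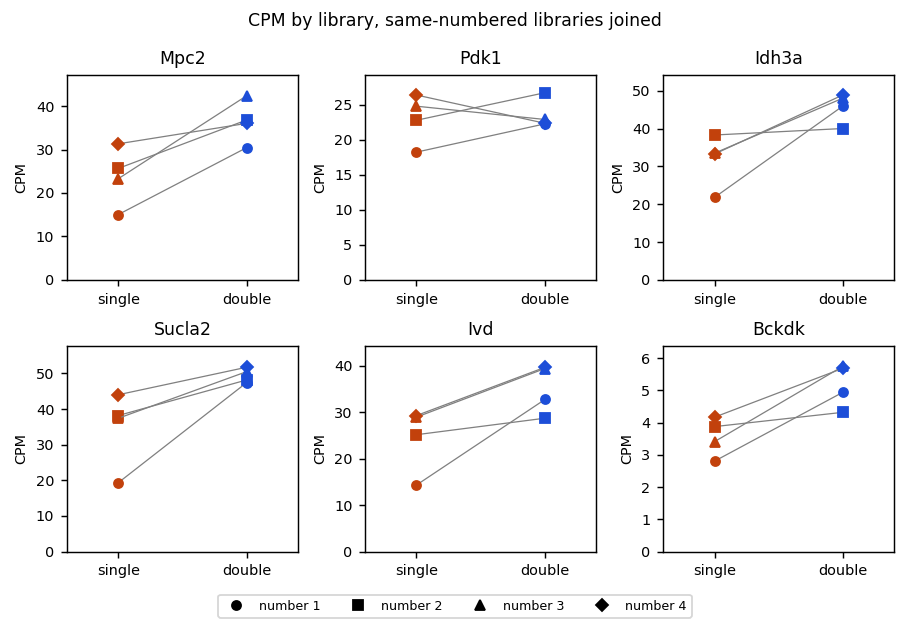
CPM of 6 genes by library, single colored on the left and double colored on the right, with lines joining libraries of the same replicate number. For Mpc2, Idh3a, Sucla2, Ivd and Bckdk the line climbs to the double colored library in every pair, whereas for Pdk1 it climbs in 2 pairs and descends in 2.

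TCA cycle genes had a median log2 fold change of −0.42, and 7 of 11 were lower at an unadjusted p under 0.05 (background 6.1%). The count was 4 of 11 without single colored replicate 1 (background 4.71%). The NAD-dependent isocitrate dehydrogenase, a rate-controlling step of the cycle, was represented by all its subunits. Idh3a (ENSMUSG00000032279, mm9 chromosome 9, 54434288 to 54452468, plus strand), the catalytic subunit, had 21.8, 38.3, 33.5 and 33.3 CPM in single colored and 46.02, 40.04, 48.1 and 48.9 CPM in double colored libraries. The groups did not overlap, the nearest libraries being those numbered 2. Its log2 fold change was −0.53 ± 0.17 (s.e.) (edgeR unadjusted p = 0.00609, adjusted p = 0.124, and 0.0211 with the replicate block), and it was −0.39 without single colored replicate 1. Idh3b, a regulatory subunit, had 60.3, 101, 109 and 104 CPM in single colored and 129, 122, 135 and 129.8 CPM in double colored libraries, with no overlap. The log2 fold change was −0.46 ± 0.18 (s.e.) (edgeR adjusted p = 0.220, and 0.0411 with the block). The other regulatory subunit, Idh3g, also did not overlap, with a log2 fold change of −0.29 ± 0.16 (s.e.). Idh2, the NADP-dependent mitochondrial enzyme, had 28.9, 52.04, 65.4 and 66.6 CPM in single colored and 60.9, 68.8, 84.9 and 79.7 CPM in double colored libraries. Single colored replicates 3 and 4 lay above double colored replicate 1, and the log2 fold change of −0.47 ± 0.22 (s.e.) passed with the block (edgeR adjusted p = 0.0238). Omitting single colored replicate 1 gave −0.31 for Idh3b, −0.15 for Idh3g and −0.27 for Idh2.

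Succinyl-CoA synthetase, which makes ATP or GTP in the cycle, is represented by its shared alpha and its ATP-forming beta subunit. Both passed with the block and neither without it, nor with the block without both libraries numbered 1 (edgeR adjusted p = 0.257 for Suclg1 and 0.0893 for Sucla2). Sucla2, the beta subunit, had 19.3, 38.2, 37.4 and 44.01 CPM in single colored and 47.4, 48.2, 50.5 and 51.7 CPM in double colored libraries. The double colored libraries lay close together and above all single colored ones. The log2 fold change was −0.51 ± 0.20 (s.e.) (edgeR adjusted p = 0.219, and 0.0254 with the block), and −0.32 without single colored replicate 1. Suclg1, the alpha subunit, had 11.3, 22.3, 20.9 and 24.1 CPM in single colored and 27.4, 25.1, 26.4 and 30.3 CPM in double colored libraries. Its groups did not overlap either, and the log2 fold change was −0.47 ± 0.19 (s.e.) (edgeR adjusted p = 0.248, and 0.0474 with the block), and −0.29 without single colored replicate 1.

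Dlst, the succinyltransferase core of the oxoglutarate dehydrogenase complex, had 35.3, 66.3, 60.003 and 65.1 CPM in single colored and 65.4, 77.6, 75.6 and 83.999 CPM in double colored libraries. Single colored replicate 2 lay just above double colored replicate 1, and the log2 fold change was −0.42 ± 0.19 (s.e.) (edgeR adjusted p = 0.301, and 0.0391 with the block). Ogdh, the decarboxylase of the same complex, had 157 ± 44.5 CPM in single colored against 191 ± 51.4 CPM in double colored libraries (mean ± SD, n = 4 each), and its log2 fold change of −0.29 ± 0.23 (s.e.) was the smallest of the cycle. Fumarase (Fh1) at −0.36 and mitochondrial malate dehydrogenase (Mdh2) at −0.30 did not overlap between groups, while Cs at −0.38 did. None of these passed with the block except Dlst, with adjusted p of 0.0916 for Fh1, 0.171 for Mdh2, 0.0775 for Cs and 0.184 for Ogdh in edgeR. Omission of single colored replicate 1 gave −0.25 for Dlst, −0.15 for Ogdh, −0.22 for Fh1, −0.14 for Mdh2 and −0.22 for Cs.

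The malate-aspartate shuttle moves the electrons of cytosolic NADH into the mitochondrion, using malate dehydrogenases and aspartate aminotransferases on either side of the inner membrane. Mdh1, on the cytosolic side, had 117, 199, 159 and 220.5 CPM in single colored and 237, 229, 244 and 233 CPM in double colored libraries. The double colored libraries were nearly level and all above the single colored ones, and the log2 fold change was −0.44 ± 0.19 (s.e.) (edgeR adjusted p = 0.279). Got1, the cytosolic aminotransferase, had 79.4, 124, 149 and 146 CPM in single colored and 139.5, 143, 179 and 196 CPM in double colored libraries. Single colored replicates 3 and 4 lay above double colored replicates 1 and 2, and the log2 fold change was −0.40 ± 0.20 (s.e.) (edgeR adjusted p = 0.368). Got2, its mitochondrial counterpart, had 16.8, 28.8, 37.5 and 29.5 CPM in single colored and 28.3, 33.6, 42.4 and 41.6 CPM in double colored libraries. The groups overlapped, and the log2 fold change was −0.38 ± 0.21 (s.e.) (edgeR adjusted p = 0.423). A pseudogene copy of Got2 is annotated (Got2-ps1), and how reads shared with it were counted is not known here. The 3 genes did not pass with the block either (edgeR adjusted p = 0.0636, 0.0596 and 0.0534). Dld, which regenerates the lipoamide of the pyruvate, oxoglutarate and branched-chain complexes, had 56.99, 95.2, 99.4 and 87.7 CPM in single colored and 94.2, 109, 113 and 111 CPM in double colored libraries. Double colored replicate 1 lay within the single colored range and the other 3 above it, with a log2 fold change of −0.33 ± 0.18 (s.e.) (edgeR adjusted p = 0.397). Without single colored replicate 1 the values were −0.30 for Mdh1, −0.24 for Got1, −0.20 for Got2 and −0.19 for Dld.

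Branched-chain catabolism had a median log2 fold change of −0.42, and 6 of 13 genes were lower at an unadjusted p under 0.05 (background 6.1%). That count was 2 of 13 without single colored replicate 1 (background 4.71%). The first steps are common to leucine, isoleucine and valine. Bcat2, the mitochondrial transaminase, had 4.67 ± 1.63 CPM in single colored against 6.69 ± 1.54 CPM in double colored libraries (mean ± SD, n = 4 each) and a log2 fold change of −0.53 ± 0.26 (s.e.), with overlapping groups. Of the branched-chain dehydrogenase complex, Bckdha had −0.40 and Bckdhb −0.42 for the decarboxylase, each from 140 reads per library or fewer. Dbt, the acyltransferase core, had 5.40, 11.6, 14.6 and 12.1 CPM in single colored and 9.76, 13.8, 18.02 and 19.6 CPM in double colored libraries. The groups overlapped widely while each pair had the single colored library lower, and the log2 fold change of −0.49 ± 0.27 (s.e.) passed with the block (edgeR adjusted p = 0.0370). Bckdk (ENSMUSG00000030802, mm9 chromosome 7, 135047596 to 135053178, plus strand), the kinase that inhibits the complex, had 2.80, 3.87, 3.41 and 4.17 CPM in single colored and 4.94, 4.32, 5.75 and 5.68 CPM in double colored libraries. These groups did not overlap, and the log2 fold change was −0.54 ± 0.21 (s.e.) (edgeR adjusted p = 0.216, and 0.126 with the block). Of the complex and its kinase, only Dbt passed with the block. When single colored replicate 1 was left out, the log2 fold changes were −0.33 for Bcat2, −0.32 for Bckdha, −0.27 for Bckdhb, −0.26 for Dbt and −0.45 for Bckdk.

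Beyond the complex the routes part. Ivd (ENSMUSG00000027332, mm9 chromosome 2, 118687690 to 118708645, plus strand), the isovaleryl-CoA dehydrogenase of leucine breakdown, had 14.3, 25.1, 28.9 and 29.2 CPM in single colored and 32.7, 28.7, 39.4 and 39.6 CPM in double colored libraries. Single colored replicates 3 and 4 lay just above double colored replicate 2, and the log2 fold change was −0.53 ± 0.20 (s.e.) (edgeR adjusted p = 0.207, and 0.0211 with the block). The next leucine enzyme, methylcrotonyl-CoA carboxylase, had −0.37 ± 0.18 (s.e.) for Mccc1, whose groups did not overlap, and −0.28 ± 0.27 (s.e.) for Mccc2, whose groups did. Hibch, which frees hydroxyisobutyrate from coenzyme A in valine breakdown, had 7.65, 12.1, 15.3 and 13.4 CPM in single colored and 20.98, 14.7, 17.97 and 15.6 CPM in double colored libraries. Single colored replicate 3 lay above double colored replicate 2, and the log2 fold change was −0.52 ± 0.20 (s.e.) (edgeR adjusted p = 0.204). Hibadh, the following dehydrogenase, had 7.73, 12.3, 12.9 and 14.8 CPM in single colored and 15.5, 16.2, 20.9 and 14 CPM in double colored libraries. Single colored replicate 4 lay above double colored replicate 4, and the log2 fold change was −0.48 ± 0.19 (s.e.) (edgeR adjusted p = 0.236). With the block neither passed (edgeR adjusted p = 0.0743 and 0.0617). Acadsb, the short branched-chain acyl-CoA dehydrogenase of isoleucine breakdown, was separated between groups by a log2 fold change of −0.30 ± 0.14 (s.e.). Propionyl-CoA carboxylase, which turns the propionyl-CoA of isoleucine and valine toward succinyl-CoA, had −0.28 for Pcca and −0.36 for Pccb, the first without overlap. Leaving out single colored replicate 1 gave −0.34 for Ivd, −0.22 for Mccc1, −0.12 for Mccc2, −0.36 for Hibch, −0.33 for Hibadh, −0.22 for Acadsb, −0.17 for Pcca and −0.22 for Pccb.

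The median log2 fold change was −0.38 over pyruvate entry, −0.42 over the TCA cycle, −0.40 over the shuttle and −0.42 over branched-chain catabolism. Without single colored replicate 1 the medians were −0.23, −0.25, −0.24 and −0.27. The differences between steps were not tested.

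Cardiomyocyte markers gave values of the same size. Their median log2 fold change was −0.43, 11 of 12 were negative, none passed the test, and 5 of 12 did not overlap between groups, with single colored cells below (background 3.76%). With the replicate block 2 of 12 markers were called lower (background 2.57%). The block without both libraries numbered 1 called 5 of 12 markers lower (background 1.3%). Their median was −0.25 without single colored replicate 1. The exception was Myh7, the fetal myosin heavy chain of the mouse ventricle, at 0.79. Their mean deviation was −0.774, −0.0483, 0.134 and 0.0318 on the log2 scale in single colored replicates 1 to 4 and 0.0921, 0.177, 0.188 and 0.199 in double colored replicates 1 to 4. Single colored replicate 1 again lay far below the rest, whereas single colored replicate 3 lay above double colored replicate 1. For every 100 marker reads, the 36 genes drew 7.32, 7.20, 7.06 and 8.30 reads in single colored and 8.41, 6.71, 7.998 and 7.64 reads in double colored libraries, and these groups overlapped. In bulk samples fewer cells of a type and less RNA per cell cannot be told apart.

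**Figure D4:**
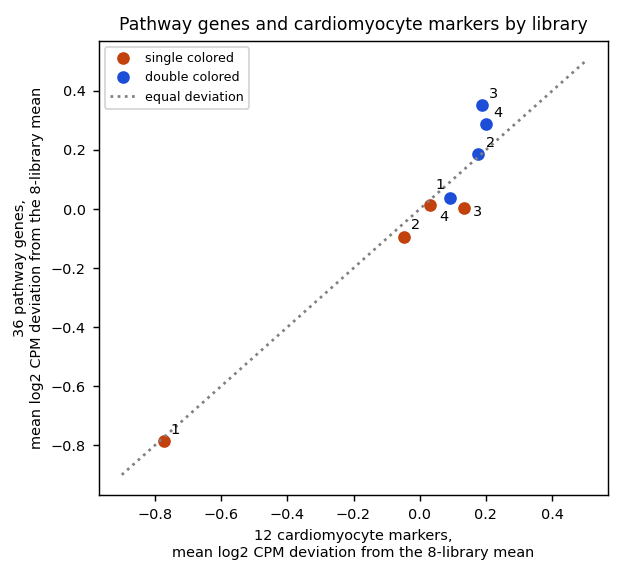
Each point is a library, with the mean log2 CPM deviation of 12 cardiomyocyte markers on the x axis and that of the 36 genes on the y axis, single colored in orange and double colored in blue, labelled by replicate number. Single colored replicate 1 lies at −0.77 and −0.79, and the other 7 libraries lie within 0.164 of the dotted line of equal deviation, between −0.09 and 0.35 on the y axis.

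Scaled to the summed reads of these markers, the median log2 fold change of the 36 genes was −0.05, and 25 of the 36 were negative (background 14.3%). No member passed, whereas 371 of all 12466 tested genes were called higher and 0 lower. None of the 36 was under an unadjusted p of 0.05 in either direction (background 0.233% lower and 19.8% higher in edgeR). This scaling moved the median of all tested genes to 0.41, and the median of the 36 genes relative to it was −0.45. The lowest value was again that of Mpc2 at −0.25, followed by Hibch at −0.21, Ivd at −0.19, Sucla2 at −0.18 and Idh3a at −0.18, while Pdk1 was at 0.35. Scaling by library totals alone turned the sign of most of the 36 genes, with a median of 0.05 and 14 of 36 negative (background 10.3%), while the median of all genes moved to 0.48. The direction for the 36 genes therefore held relative to all genes. Relative to cardiomyocyte markers 25 of the 36 stayed negative, but the median was near 0, at −0.05, and none passed. The part of other cell types' RNA in the result was not tested.

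**Figure D5:**
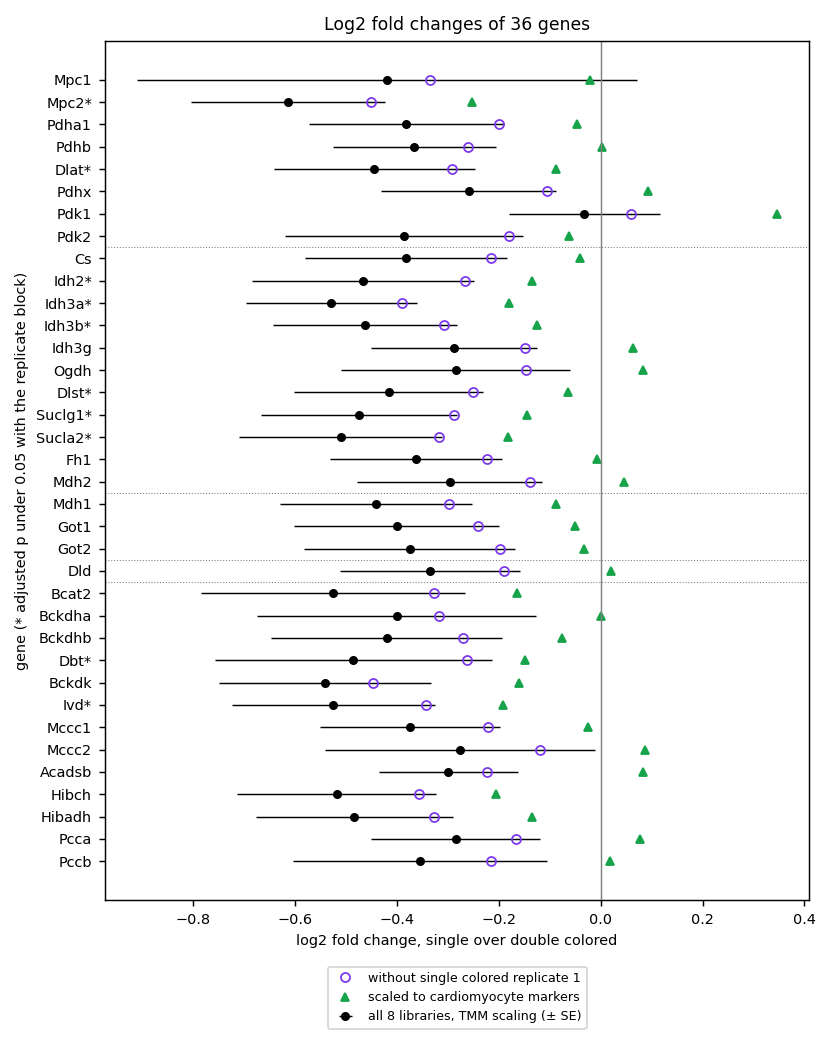
Log2 fold change of each gene (single over double colored) with its SE in black, without single colored replicate 1 as open circles and scaled to cardiomyocyte markers as green triangles, grouped by step from pyruvate entry at the top to branched-chain catabolism at the bottom. All 36 black points lie below 0, all but Pdk1 of the open circles do, and the triangles gather around 0, from −0.25 to 0.35.

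Further genes of the same pathways gave mixed values. Of 59 tested, 46 had a negative log2 fold change with a median of −0.25, none passed in edgeR, and 14 were lower and 3 higher at an unadjusted p under 0.05 (background 6.1% lower and 9.02% higher). Without single colored replicate 1 the median was −0.17, and 9 were lower and 1 higher (background 4.71% and 6.47%). DESeq2 called 3 (Pdp2 and Acat1 lower, Slc43a2 higher), limma-voom called none, and with the replicate block 12 were called lower and 1 higher (background 2.57% and 4.97%). Pdp2, a phosphatase that switches pyruvate dehydrogenase back on, had 2.02, 4.22, 3.98 and 5.12 CPM in single colored and 4.73, 7.23, 8.43 and 7.94 CPM in double colored libraries, with a log2 fold change of −0.89 ± 0.27 (s.e.) (edgeR adjusted p = 0.0981, and 0.00592 with the block). Slc25a11, the oxoglutarate carrier of the malate-aspartate shuttle, was at −0.56 ± 0.18 (s.e.) (edgeR adjusted p = 0.122, and 0.0141 with the block). Gpt, an alanine aminotransferase that links alanine to pyruvate, was at −1.31 ± 0.45 (s.e.) on few reads, with 1.11 ± 0.717 CPM in single colored against 2.72 ± 1.43 CPM in double colored libraries (mean ± SD, n = 4 each). Its edgeR adjusted p was 0.160, and 0.0437 with the block.

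Among the further branched-chain genes, Acat1, the thiolase that ends isoleucine breakdown, had 42.97, 74.1, 72.6 and 76.9 CPM in single colored and 92.3, 100.4, 109.7 and 107 CPM in double colored libraries. The groups did not overlap, and the log2 fold change was −0.62 ± 0.18 (s.e.) (edgeR adjusted p = 0.0884, and 0.00465 with the block). Hsd17b10, the dehydrogenase one step before it, was at −0.63 ± 0.19 (s.e.), also without overlap (edgeR adjusted p = 0.106, and 0.0316 with the block). Slc43a2, a plasma membrane transporter of branched-chain and other neutral amino acids, ran the other way. It had 10.04, 11.1, 10.02 and 12.8 CPM in single colored and 6.91, 7.91, 5.14 and 8.40 CPM in double colored libraries, so that every single colored library lay above every double colored one. The log2 fold change was 0.63 ± 0.18 (s.e.) (edgeR adjusted p = 0.0890, and 0.0167 with the block), and it was 1.04 scaled to cardiomyocyte markers. The mitochondrial succinate dehydrogenase subunit Sdha, named after its values were seen, had a log2 fold change of −0.46 ± 0.22 (s.e.), close to the median of the TCA cycle members.

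In the authors' deposited table, where a positive fold change means higher in double colored cells, all 36 genes were higher in double colored cells, with a median of 0.41. A raw p below 0.05 stood beside 6 of them in the authors' deposited table (Mpc2, Idh3a, Sucla2, Bckdk, Ivd and Hibch), against 9.77% of 15711 genes. The smallest FDR of a member in the authors' deposited table was 0.403, for Mpc2. Over all 15711 genes the smallest FDR there was 0.185, so no gene of any kind had an FDR below 0.05.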

How the data were processed

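RNA of single colored and double colored cells (4 libraries each) was isolated with a miRNeasy Micro Kit and amplified with the Ovation RNA-seq System v2, per the labels' protocols. STAR 2.5.2b aligned the reads to mm9, and featureCounts (Subread) assigned them to genes, per the submitters' processing notes. The deposited values are whole raw read counts per gene, not estimated counts, per the file headers. The authors' deposited log2 fold changes, p-values and FDR values come from a test not given in the sources used here. The strand setting is not given either, so overlapping antisense genes cannot be told apart.

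Symbols were matched by Ensembl identifier (GENCODE vM21 names) for 32919 of 37991 genes, and the other 5072 kept the identifier. Counts of all 8 libraries were fitted with edgeR 4.0.16 in R 4.3.3 (filterByExpr with a minimum count of 10, TMM scaling, robust quasi-likelihood F-test, Benjamini-Hochberg at 0.05 over 12466 genes). TMM factors ran from 0.953 to 1.44 in single colored and 0.733 to 0.972 in double colored libraries. CPM use these factors and the summed reads of the tested genes, and levels between genes are CPM per kb of the deposited exonic length. Alternatives were DESeq2 1.42.0, limma 3.58.1 (voom with quality weights), other scalings and filters, leaving out each library, and the replicate number as a block. The pipeline was tested on simulated data.

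Across genes, the deviations from the group mean of libraries that share a number correlated by 0.257, 0.126, 0.136 and 0.139, each above any correlation with another number (at most 0.108). The numbers were therefore taken to pair the libraries, although no label explains the number. Libraries of a group differed by far more than counting noise.

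Members, marker lists and pathway lists were chosen with earlier results of these data known. All 36 members are accounted for. Values in every library are given for members past the threshold (with or without the block), the 4 with the smallest p in each of pyruvate entry, TCA cycle and branched-chain catabolism, the shuttle, Dld, the highest and lowest by length, and any of opposite sign to the member median. Of other pathway genes, those past the threshold and the 3 with the smallest p per list are named.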

Additional observations from a re-analysis of the deposited data

Results flagged for a closer look

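Single samples lay far from the others of their group in 10 of 74 groups of 4 libraries examined, by the gap to the nearest library over the group's range, against Dixon's critical value. Chance gives about 1 in 20 for independent groups. These groups share the same libraries and their genes move together, so the count cannot be set against that rate. In 8 of the 10 the library was single colored replicate 1, on the low side: the mean level of the 36 genes (gap ratio 0.866), Pdha1 (0.903), Pdhx (0.878), Idh3b (0.837), Idh3g (0.912), Mdh2 (0.886), Mccc1 (0.945) and Acadsb (0.835). Its Mccc1 level was 8.80 CPM, against 14.8 to 15.1 CPM in the other single colored libraries, and its Mdh2 level was 66.1 CPM, against 113 to 119 CPM. The cardiomyocyte markers of this library were low as well, at a mean deviation of −0.77 on the log2 scale. The part of cell composition in this was not tested.

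Pdk1 was high in double colored replicate 2 (gap ratio 0.860), at 26.7 CPM against 22.3 to 22.9 CPM in the other double colored libraries. Bckdha was high in single colored replicate 2 (gap ratio 0.838), at 3.91 CPM against 1.94 to 2.26 CPM in the other single colored libraries, on at most 112 reads.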

How the results depend on the processing

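No member passed under any alternative without the replicate number, apart from Mpc2 without a filter on low counts (1 gene). With the replicate block 10 passed, and 2 of those without both libraries numbered 1; the block changed the call of no other member. Other pathway genes called, 0 in the report, were 13 with the block, 6 with the block without both libraries numbered 1, 5 with the block scaled to cardiomyocyte markers (all higher in single colored cells), 7 without a filter, 3 by DESeq2, 2 by library totals alone and 1 scaled to markers. All genes called (309) were 939 with the block, 523 with the block without both libraries numbered 1, 2134 with the block scaled to markers, 1378 by library totals alone, 805 without a filter, 556 by DESeq2 and 97 with a filter at 5 CPM. Leaving out a library gave from 134 to 304, with 142 when single colored replicate 1 was omitted, 191 when double colored replicate 2 was and 134 when double colored replicate 4 was. The median log2 fold changes of all members, pyruvate entry, the TCA cycle and branched-chain catabolism were 0.054, 0.059, 0.024 and 0.050 by library totals alone. They were −0.049, −0.034, −0.065 and −0.077 scaled to markers, and −0.054, −0.051, −0.070 and −0.062 scaled to markers with the block, which by construction moves every gene by a like amount. Pdk1 turned positive with a filter at 5 CPM (0.012), without single colored replicate 1 (0.060), without double colored replicate 2 (0.030) and with the block without both libraries numbered 1 (0.043). Leaving out a library gave Pdk1 from −0.11 to 0.060. The cause was not tested. The 2 added settings were chosen after seeing the data. Mpc1, on 8 to 25 reads per library, had an SE of 0.49, against a median SE of 0.19 over the members, so a value of the size of the members' median lay within its error.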

Other observations

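With the block and scaling to cardiomyocyte markers, 2118 of all 12466 tested genes were called higher in single colored cells and 16 lower. Of the 59 other pathway genes tested, 5 were called, all higher, a smaller share than over all genes. They are Slc43a2, described above, and Slc3a2, Slc7a5, Bcat1 and Acly, named here after their values were seen. The log2 fold changes that follow are with TMM scaling and without the block, unless stated otherwise. Slc3a2 and Slc7a5, the partners of the plasma membrane exchanger that imports leucine, had log2 fold changes of 0.56 ± 0.21 (s.e.) and 0.92 ± 0.43 (s.e.) (edgeR adjusted p = 0.201 and 0.327). Slc3a2 had 12.5, 8.24, 9.37 and 7.14 CPM in single colored and 6.87, 7.82, 5.36 and 5.31 CPM in double colored libraries, with the single colored library higher in each numbered pair. Bcat1, the cytosolic transaminase, was at 1.43 ± 0.73 (s.e.) on few reads (1.05 ± 0.461 CPM in single colored against 0.389 ± 0.501 CPM in double colored libraries (mean ± SD, n = 4 each)). Acly, which splits exported citrate in the cytosol, was at 0.34 ± 0.19 (s.e.). Other transporters and cytosolic enzymes of these pathways had values on either side of 0. Among those below were Slc25a44 at −0.28, Me1 at −0.17, Idh1 at −0.08 and Ldha at −0.07. Above 0 were Slc25a1 at 0.72 and Slc25a10 at 0.11, both on few reads, and Aco1 at 0.01. With the block and scaling to cardiomyocyte markers, Slc25a44, Me1, Idh1 and Ldha lay above 0, at 0.08, 0.21, 0.29 and 0.31. None of them was called. Most macrophage markers (12 of 14) and all 9 tested lymphocyte markers had a positive log2 fold change too, and their part in these values was not tested.

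Pdk4, a kinase of pyruvate dehydrogenase that rises in the fasted heart, had 11.6, 21.7, 44 and 22.8 CPM in single colored and 28.3, 32.3, 67.4 and 31.2 CPM in double colored libraries. Its levels moved with the replicate number, highest in both libraries numbered 3. The log2 fold change was −0.67 ± 0.43 (s.e.) (edgeR adjusted p = 0.525), and with the block the adjusted p was 0.00262 in edgeR, with the single colored library lower in each pair.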
